A study of Mus musculus with 6 samples.

Results

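Of the 1092 m5C sites listed for chromatin-associated RNA (caRNA) of mouse embryonic stem (mES) cells, 308 lay antisense to a host gene. A site was placed here when its base fell inside an annotated gene body (GENCODE release M21, any gene type) on the opposite strand and inside none on its own strand. The other sites were 230 on the strand of a gene and 554 in no gene. The series holds 6 libraries from cultured mES cells, 3 from wild-type (WT) cells and 3 from *Tet2* knockout (KO) cells, which lack the 5-methylcytosine oxidase TET2 and are named in the labels by genotype only. The caRNA, which stays with the chromatin pellet on fractionation, was treated with ultrafast bisulfite, which turns C but not m5C into a base read as T, and selected retroelement RNAs were then amplified. The deposited result is 1 list of positions for all 6 libraries, with no level, coverage or sample. Its name ties it to *Tet2* KO against WT, and whether it was narrowed by that comparison or holds every site found is not stated, so a cytosine that is not listed may still be methylated. WT and *Tet2* KO were therefore not compared, depth is unknown and no replicate error can be given. Intervals below are 95% Wilson intervals that cover the counting of sites only, and neighbouring sites or copies of a repeat are not independent.

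Most mouse genes hold retroelements in their introns, and an element inserted against its host can be transcribed from its own promoter, or read through from elsewhere, on the strand opposite the host's messenger RNA. B1 and B2 are short interspersed elements transcribed by RNA polymerase III, L1 is an autonomous retrotransposon, and IAPEz, MERVL and the MT elements are long terminal repeat elements, several of them active in the early embryo or in embryonic stem cells. Because such elements exist in many near-identical copies, a bisulfite read can often be given to several places, which matters for assigning a site to a particular host gene.

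The listed strand matched the amplified strand. Primer sequences of the 20 retroelement amplicons were searched around each site, with C read as T in primer and genome. Within 300 nt, 303 of 308 antisense sites had a perfect match to an RT (reverse transcription) or forward primer on their own strand, and 7 had one on the other strand. With up to 3 mismatches allowed, 307 of 308 had a match on their own strand (99.7%, interval 98.2 to 99.9). Each site was assigned to the amplicon it lay between the primers of, or else to that of a primer match over it or just before it. By this rule 229 sites were assigned to B2, 36 to IAPEz, 22 to L1, 10 to B1, 9 to MTA and 1 to MERVL. Primer matches of 1 family only were found for 276 of 308 (89.6%, interval 85.7 to 92.5). The remaining site, in an intron of Slc35f4, had no primer match.

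**Figure D1:**
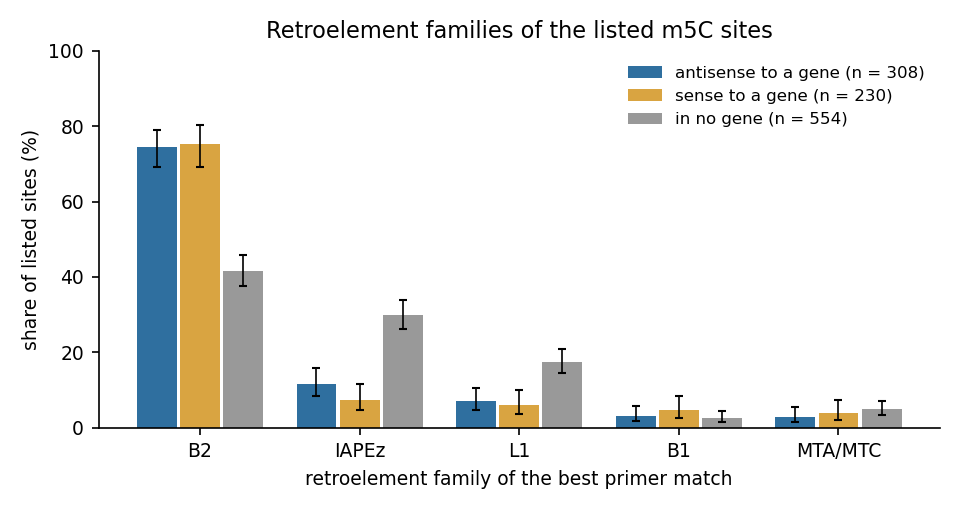
Share of listed sites (y axis, %) by retroelement family of the assigned amplicon (x axis, labelled best primer match). Bars are sites antisense to a gene, sense to a gene and in no gene, with 95% Wilson intervals. B2 made up 74.4% of antisense and 75.2% of sense sites but 41.7% of sites in no gene, 166 of which were IAPEz.

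The place of a site against the primers falls into a few kinds, and the sequences below show them. Each RT primer carries its gene-specific part behind 7 random bases, the unique molecular identifier (UMI), so that in a product made with that primer the 7 positions just past the match hold the primer's random bases and not a copy of the RNA. Primers are named here by the subfamily given in the study's primer list, which need not be the subfamily of the copy matched, since the B2 primers share sequence. The RT primer targets that most sites lay next to are given as the converted RNA reads, 5′ to 3′. The capital in the IAPEz target is the only C that any of the 20 RT or 20 forward primer targets kept, and the primer itself carries its complement there.
IAPEz-int (a2): gaaCttgttgagttggtttgtaa
B2_Mm1a (a13): ttataattatttgtaatgagatttg
B2_Mm2 (a14): taatttttagtaattatatggtggt

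Genomic sequence around example antisense sites is given on the strand of the site from the mm10 reference, with 40 nt before and 20 nt after the listed base. The capital marks the listed C, and among sites of a kind in an intron those with 1 place in the genome for the sequence over 75 nt on each side were taken first, then those with the fewest mismatches to the RT primer and the fewest copies of the nearer context. The first lies on the C that the IAPEz primer carries, the next 4 lie 2 or 4 nt past an RT match in B2, and the last 5 lie between the primers of an amplicon, away from any primer match.
Gm48860, chr14:14334431-14334491, plus strand: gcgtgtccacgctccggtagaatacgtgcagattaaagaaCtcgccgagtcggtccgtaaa
Mtf1, chr4:124825842-124825902, minus strand: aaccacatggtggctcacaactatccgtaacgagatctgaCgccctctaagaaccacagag
Mtf1, chr4:124825840-124825900, minus strand: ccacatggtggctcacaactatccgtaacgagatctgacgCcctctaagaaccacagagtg
Ube4b, chr4:149415352-149415412, plus strand: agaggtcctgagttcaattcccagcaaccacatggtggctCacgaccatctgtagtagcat
Dnajc14, chr10:128808287-128808347, minus strand: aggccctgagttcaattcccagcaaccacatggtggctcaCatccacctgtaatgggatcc
Bend7 (B2), chr2:4738288-4738348, minus strand: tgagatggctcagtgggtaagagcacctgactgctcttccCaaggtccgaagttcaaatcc
Msn (B1), chrX:96142616-96142676, minus strand: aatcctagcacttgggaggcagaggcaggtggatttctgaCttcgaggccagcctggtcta
Gm26713 (L1MdTf), chr9:80957907-80957967, minus strand: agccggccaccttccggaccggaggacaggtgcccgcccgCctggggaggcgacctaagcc
Enah (MTA), chr1:181949559-181949619, plus strand: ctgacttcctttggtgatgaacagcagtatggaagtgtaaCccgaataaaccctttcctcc
Ros1 (MERVL), chr10:52054442-52054502, plus strand: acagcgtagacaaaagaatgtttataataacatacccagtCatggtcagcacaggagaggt

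Most antisense sites lay directly past an RT primer match. There were 216 of 308 in a UMI stretch (70.1%, interval 64.8 to 75.0), 210 of them assigned to B2, 5 to L1 and 1 to B1. The 1 assigned to B1, in Itgb3bp, lay 2 nt past a perfect match of the B2_Mm1a primer. A further 36 (11.7%, 8.56 to 15.8), all the IAPEz sites, lay on the C that the IAPEz primer carries, so a product made with that primer has this base from the primer. Only 34 (11.0%, 8.01 to 15.0) lay between the primers of an amplicon and in no primer footprint or UMI stretch. Of the others, 16 lay between the primers of an amplicon but under a primer match of another, and 5 lay under a primer match only. In 24 of the 216 UMI-stretch sites the base was also between primer matches of an amplicon, for some the same amplicon as that of the UMI stretch. The other 192 were not between any primers. Some UMI-stretch sites also lay under another primer match. Sites in any primer footprint were 129 of all 308 (41.9%, interval 36.5 to 47.5), 33.9% of sense sites and 54.0% of sites in no gene. The study's methods state that the 7 UMI bases were taken off the second read. Whether any of these bases stayed on the reads that gave the listed sites was not tested.

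**Figure D2:**
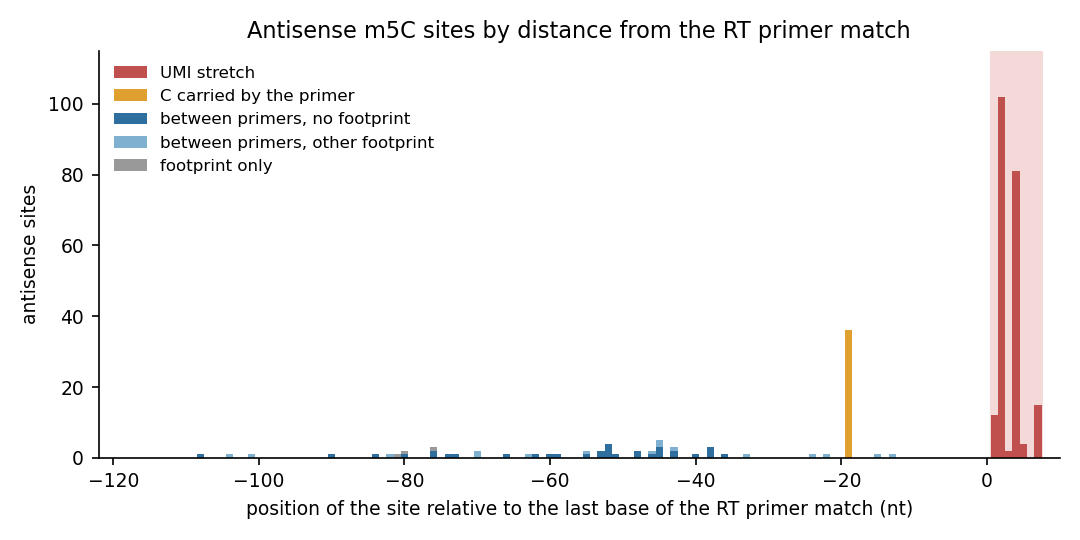
Number of antisense sites (y axis) by distance in nt from the last base of the RT primer match (x axis, positive past the match, shaded band the 7-nt UMI stretch), coloured by place. The 102 sites at +2 and 81 at +4 stand above the rest, the 36 IAPEz sites share 1 position inside the primer, and 4 sites are not drawn, 2 lying more than 120 nt before the end and 2 having no RT match to measure from.

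The UMI-stretch sites sat at few positions. At 2 nt past the match there were 102 sites (47.2% of 216, interval 40.7 to 53.9), at 4 nt 81 (37.5%, 31.3 to 44.1), at 7 nt 15, at 1 nt 12, at 5 nt 4 and at 3 nt 2. The B2_Mm1a primer accounted for 73 sites at 2 nt and 58 at 4 nt. For the B2_Mm2 primer, 28 sites lay at 2 nt, 23 at 4 nt and 14 at 7 nt, and for the B2_Mm1t primer 11 lay at 1 nt. The RT match was perfect for 194 of the 216, with 1 mismatch for 21 and 2 for 1. The 216 sites belonged to 139 RT matches, of which 63 held 2 or more of them. In 43 of 89 matches of the B2_Mm1a primer both the position at 2 nt and that at 4 nt were listed, and in 14 of 35 matches of the B2_Mm2 primer the positions at 2, 4 and 7 nt were all listed.

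Not every cytosine of these stretches was listed. Within 60 nt of the antisense sites there were 6856 cytosines on the same strand, and 20.4% of the 1060 in UMI stretches were listed (interval 18.1 to 22.9). All 36 at the C carried by the IAPEz primer were, but these are the antisense sites themselves, so that share was fixed by the choice of sites. Of the 1566 between primers in no footprint, 34 were listed (2.17%, 1.56 to 3.02). Of 1427 in no footprint or UMI stretch and between no primers, none was (upper bound 0.268%). These shares describe cytosines near sites that were chosen for being listed, so they are not rates for the genome. In the stretch past the B2_Mm1a primer, 73 of 90 cytosines at 2 nt (81.1%) and 58 of 123 at 4 nt (47.2%) were listed, and 0 of 125 at 5 nt and 0 of 125 at 6 nt were (upper bound 2.98% each). Past the B2_Mm2 primer the shares were 18.9% of 148 at 2 nt, 15.6% of 147 at 4 nt and 9.66% of 145 at 7 nt. Past the B2_Mm1t primer, 11 of 12 cytosines at 1 nt and 0 of 56 at 3 nt were listed.

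**Figure D3:**
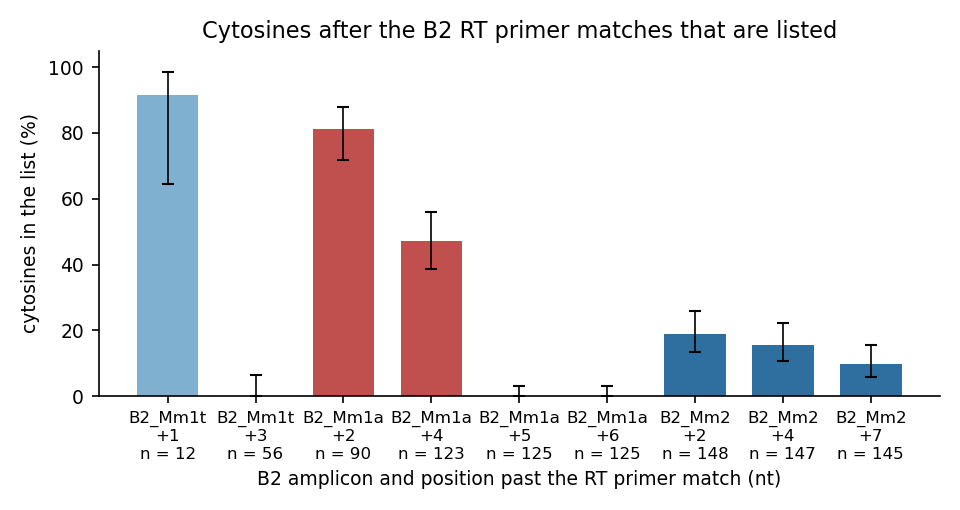
Share of cytosines that are listed (y axis, %) at positions past the RT primer matches of the 3 B2 amplicons (x axis, named by the primer, number of cytosines under each bar, positions with at least 10 drawn), with 95% Wilson intervals. Past the B2_Mm1a primer the bars at 2 and 4 nt reach 81.1% and 47.2% and those at 5 and 6 nt are at 0.

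The same local sequence recurred. The 308 sites carried 131 distinct 21-nt contexts, and 196 (63.6%, interval 58.1 to 68.8) had a context shared by 5 or more listed sites. The commonest are given with the listed C in capitals, named by the RT primer matched and the distance past the match, or by the primer's C for IAPEz.
B2_Mm1a, 4 nt past: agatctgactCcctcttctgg
B2_Mm1a, 2 nt past: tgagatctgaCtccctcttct
B2_Mm1a, 2 nt past, other first base: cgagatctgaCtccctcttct
B2_Mm2, 2 nt past: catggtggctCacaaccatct
B2_Mm2, 4 nt past: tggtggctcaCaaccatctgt
IAPEz, C carried by the primer: gattaaagaaCtcgccgagtc

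The first of these was carried by 32 antisense sites, and 86 listed sites in all. Read with C as T, it occurred at 10252 places in the genome, 9918 of them with C at the centre. The next pair held 30 and 20 antisense sites, with 6363 places each in converted form, which they share. The contexts past the B2_Mm2 primer held 15 and 14 antisense sites, and they occurred at 59234 and 46351 places. In contrast, the IAPEz context had 14 antisense and 59 listed sites, and its converted form occurred at 172 places, 170 of them with a central C. The list held 55.3% of these 170, under this or another spelling. For the context 4 nt past the B2_Mm1a primer that share was 0.988%.

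The orientation of the listed sites was set beside that of the genomic copies of their contexts. Among listed sites in genes, 308 of 538 were antisense (57.2%, interval 53.0 to 61.4). In the 10 converted B2 contexts shared by 5 or more listed sites, 159 of 278 genic sites were antisense (57.2%, 51.3 to 62.9). Genomic copies of those contexts with C at the centre were antisense in 57.4% of genic copies, weighted by the number of listed genic sites per context, with a range over contexts from 52.4% to 58.8%. For the 3 IAPEz contexts, 35 of 51 genic sites were antisense (68.6%, 55.0 to 79.7), against 75.1% of copies. In both families the share of the copies lay inside the interval of the share of the sites. By place, 56.1% of UMI-stretch genic sites (51.1 to 61.0), 69.2% of those on the primer's C (55.7 to 80.1) and 54.0% of those between primers in no footprint (41.8 to 65.7) were antisense.

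The intervals of antisense and sense sites overlapped for each kind of place. The UMI stretch held 73.5% of sense sites (interval 67.4 to 78.8) and 39.2% of sites in no gene (35.2 to 43.3), against 70.1% here. The C of the IAPEz primer held 6.96% of sense sites (4.33 to 11.0) and 29.1% of sites in no gene (25.4 to 33.0), against 11.7%. The share between primers in no footprint was 12.6% for sense sites (8.92 to 17.5) and 15.7% for sites in no gene (12.9 to 19.0), against 11.0%. No test was run on these differences, since the sites share copies and primers.

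The antisense sites lay in introns. Of 308, 296 were in introns, in no exon of any host (96.1%, interval 93.3 to 97.8), 6 in an untranslated region, 6 in a non-coding exon and 0 in coding sequence. The sense sites had 95.7% in introns (92.2 to 97.6). A protein-coding host was present for 278 antisense sites (90.3%, 86.4 to 93.1) and for 79.6% of sense sites (73.9 to 84.3). There were 224 host genes, 195 of them protein-coding, 11 lincRNA genes, 5 processed transcripts and 5 annotated antisense transcripts. Hosts were long, with a median length of 72.9 kb (76.2 kb for protein-coding hosts), against 17.4 kb for all 21951 protein-coding genes. Host length was not separated from other properties of the hosts.

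Sites within a host were spread along it. The median distance to the nearest host start was 20.6 kb, from 0.686 to 1914.81 kb, and 86 sites were within 10 kb (27.9%, interval 23.2 to 33.2). Without B2 the share within 10 kb was 15.2% (12 of 79). With the host cut into 3 equal lengths, 121 sites were in the first (39.3%), 103 in the middle (33.4%) and 84 in the last (27.3%). The sites on the IAPEz primer's C lay farther in, at a median of 74.8 kb with 2 of 36 within 10 kb, against 15.1 kb and 67 of 216 for UMI-stretch sites and 35.3 kb and 12 of 34 for sites between primers in no footprint. The end of the next gene upstream on the strand of the site was 46.7 kb away at the median, and 38 sites lay within 10 kb of it (12.3%, 9.12 to 16.5), against 15.7% of sense sites (11.5 to 20.9). With protein-coding genes only, the antisense share was 4.29% (12 of 280), and the sense share was not recomputed.

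**Figure D4:**
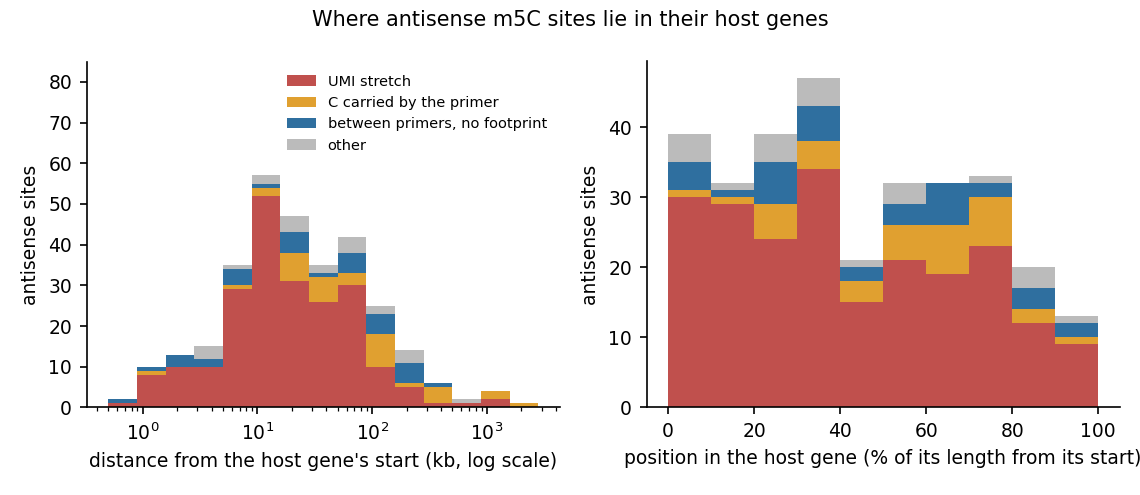
Number of antisense sites (y axes) by distance from the nearest host gene start (left, kb, log scale) and by position along the host (right, % of its length from its start), coloured by place. Sites lie along the whole gene, 121 of 308 in the first of 3 equal lengths, and the sites on the IAPEz primer's C have the larger median distance, 74.8 kb.

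Most hosts with several sites held them as neighbouring cytosines in a single copy of B2. Of 224 hosts, 157 held 1 site, 46 held 2, 16 held 3, 4 held 4 and 1 held 5, and only 10 had sites in 2 clusters more than 200 nt apart. Map2k1, which encodes the kinase MEK1, had 5, all in UMI stretches. A B2 copy with sites 8.974, 8.972 and 8.969 kb from its start lay at 2, 4 and 7 nt past a B2_Mm2 primer match, and another at 4.658 and 4.656 kb lay at 2 and 4 nt past a B2_Mm1a match. The first copy had unique windows, the second 21 and 3 identical windows for its 2 sites. Cdan1 and Ttbk2, a tau-tubulin kinase gene, overlap and shared their 4 sites, which were pairs at 2 and 4 nt. Ulk4 had 2 such pairs. The first had 59 and 47 places in the genome with the same converted sequence over 75 nt on each side, the second only its own. Abcf1 and Extl3, an exostosin-like glycosyltransferase gene, had 3 sites each at 2, 4 and 7 nt, each in a unique window. The same 3 positions were listed in Epm2a, the laforin gene, in the magnesium transporter gene Magt1 and in Miga1, but with 36, 8 and 31 to 33 identical windows, so the copy cannot be told from these sequences. Scaf4 had 3 sites in 2 clusters. The lincRNA gene Gm26713 had 4 sites in L1MdTf sequence, 2 between primers in no footprint and 2 in a UMI stretch.

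The 12 sites in exons belonged to 8 hosts or pairs of overlapping hosts. Zfp410, a zinc-finger gene, had 3 sites in an untranslated region, 13.423, 14.123 and 14.125 kb from its start, all at 2 or 4 nt past the B2_Mm1a primer match. Krt222 and Tmem88b had 1 each in an untranslated region, also in UMI stretches. The site in an untranslated region of the olfactory receptor gene Olfr373 lay between the B2_Mm1t primers, 28 nt before the RT match, in a unique window. In non-coding exons, Git2 and Plekha3 had 2 sites each in UMI stretches. The other 2 were in short genes of type TEC (to be experimentally tested) that overlap a larger host. One, in Gm7968 within Vps13b, lay 12 nt before an L1MdTf RT match. The other, in Gm44231 within Lrrtm4, lay on the IAPEz primer's C with 27 identical windows.

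Sites near a host start were few. Within 2 kb there were 15 sites (4.87%, interval 2.97 to 7.88, against 4.78% of sense sites), in 9 hosts or pairs of overlapping hosts. In UMI stretches, where 70.1% of all 308 antisense sites lay, there were 12 of these. They were in Cela3b, an elastase gene, at 0.730 kb, the kinesin gene Kif20b at 0.989 kb, AA465934 at 1.051 kb, Gm26713 at 1.188 and 1.191 kb, Mrap, which encodes a melanocortin receptor accessory protein, at 1.580 kb, the DNA repair gene Rad54b at 1.312, 1.315 and 1.317 kb and Miga1 at 1.853, 1.856 and 1.858 kb. The others were the sites in Gm7968 at 0.686 kb, in Gm44231 at 1.316 kb and a further one in Gm26713 at 1.267 kb.

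The 34 sites between primers in no footprint lay in 33 host genes and in 32 of 34 cases had a unique window, meaning that the converted sequence over 75 nt on each side occurred once in the genome (94.1%, interval 80.9 to 98.4). For UMI-stretch sites it was 148 of 216 (68.5%, 62.0 to 74.3), and for the IAPEz sites 3 of 36 (8.33%, 2.87 to 21.8), namely those in Gm48860, Macrod2 and Snhg14, named here after their values were seen. The 34 were 11 in B2, 9 in MTA, 8 in B1, 5 in L1 and 1 in MERVL. They lay 12 to 187 nt (median 28) before the RT match with the fewest mismatches, which need not be the nearest. These 34 sites held 32 distinct contexts, so few recurred among them. In the genome, however, their converted contexts occurred at a median of 592 places, from 5 to 82255.

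B2 sites of this kind were in Bend7, 28 nt before the RT match, with 21 copies of the converted context, in the transcription factor gene Rbpj at the same 28 nt with 38 copies, and in Smarcc2, a chromatin remodeller subunit, at 19 nt with 39 copies. Ptpa, a protein phosphatase activator gene, had one 30 nt before the B2_Mm1a match, with 39 copies. Rbpj and Smarcc2 were named after their values were seen. In MTA, Enah, an actin regulator of the Ena/VASP group, had a site 50 nt before the RT match in a context with 85 copies. In B1, the forkhead gene Foxn3 had a site 38 nt before the match with 450 copies, and Msn, the moesin gene, 1 at 56 nt with 467. In L1MdA, Fam135b had 1 at 14 nt with 16 copies and Pkhd1, the fibrocystin gene, 1 at 84 nt with 31. The MERVL site, in the receptor kinase gene Ros1, lay 21 nt before the match and had 2 identical windows. Every copy number of a context given here lay below the median of 592 for sites of this kind, as sites with few copies were picked. Other sites of this kind had many more, with 82255 copies in Aff4, Pak2 and Arhgap6, 11452 in Afg1l and 3527 in Vps13b. The contexts named here are therefore not typical of these sites. A unique window in the reference does not show that the reads carried enough of it to be placed.

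G was the least common letter after the C. The base after the site was T in 112 of 308 (36.4%), C in 86 (27.9%), A in 81 (26.3%) and G in 29 (9.42%, interval 6.64 to 13.2). All 36 IAPEz sites were followed by T. NSUN2, an RNA m5C methyltransferase, is known for sites followed by NGGG, and 5 of 308 had these letters (1.62%, 0.695 to 3.74), against 3.91% of sense sites (2.07 to 7.27). They were 0 of the 216 UMI-stretch sites (upper bound 1.75%), 4 of the 34 between primers in no footprint (11.8%, 4.67 to 26.6) and 1 under a primer match only. For NSUN6, the letters CTCCA from the site on were found at 2 of 308.

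Hosts on 6 lists of genes were counted. Of 29 genes for RNA and DNA 5-methylcytosine enzymes and readers, 1 was a host, Nop2, an rRNA m5C methyltransferase gene also known as Nsun1. Its site was 11.671 kb from its start, at 2 nt past a B2_Mm1a match. Of 37 Polycomb and H2AK119ub genes, 1 was a host, Aebp2, a PRC2 cofactor gene, with a site at 4 nt past such a match. Of 34 retroelement-silencing genes, 1 was a host, Atrx, a chromatin remodeller gene. No host was among the 32 pluripotency or the 40 haematopoiesis and myeloid leukaemia genes. Of 65 long synaptic and adhesion genes in the annotation, 6 were hosts (9.23%), against 0.888% of all protein-coding genes, and no match on length was made. Grm7, a glutamate receptor gene, had 1 site and Lrp1b 2, all in UMI stretches. Dmd, the dystrophin gene, Gpc6, a glypican gene, Macrod2 and Lrrtm4 had 1 each on the IAPEz primer's C. In Gpc6 that site had 25 identical windows, while Macrod2 had a unique one.

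In 5 hosts there were sites of both orientations. Atp9a, a phospholipid flippase gene, held 2 antisense sites, at 2 and 4 nt past a B2_Mm1a match, and 2 sense sites. Acaca, which encodes acetyl-CoA carboxylase, Dlgap1, Gm26920 and Reps2 held 1 of each. The antisense site of Gm26920 was the one of these between primers in no footprint, and that of Dlgap1 lay in a UMI stretch.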

How the data were processed

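The authors trimmed reads with cutadapt 4.0, took a 7-nt UMI from the second read, aligned to mm10 with HISAT-3n in a directional C-to-T mode, kept proper pairs without soft clipping, removed reads with many unconverted cytosines and listed sites by a binomial model. The deposited file gives chromosome, position and strand, with 0 columns of values per sample. It states no pooling of replicates or genotypes. Columns were read as 1-based, and all 1092 positions then fell on C.

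Members and gene lists were chosen with earlier results of these data known. Positions were placed in GENCODE M21 genes on GRCm38. Primer targets (sequences from the study's primer list) were searched within 300 nt on the site's strand with C read as T and up to 3 mismatches. Copies of the 21-nt context and of a window of 75 nt on each side were exact converted matches on chromosomes 1 to 19, X and Y. Clusters joined sites within 200 nt on the same strand. No test was run. Named genes were the 12 hosts with most sites, hosts of sites in exons, hosts on the lists and hosts with a start within 2 kb. Also named were hosts with both orientations and, for each amplicon, up to 2 sites between or just past primers. Those sites were picked for unique windows and the fewest copies of their context. The search was tested on simulated data. Software was Python 3.11.15 with numba 0.67.0, numpy 2.4.6 and scipy 1.17.1.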

Additional observations from a re-analysis of the deposited data

How the results depend on the processing

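Each of 16 results was recomputed with some of the following settings. These were basic transcripts, protein-coding genes only, other mismatch limits, other context or window lengths, the first site of each cluster, and leaving out B2 or chromosome 2. Other shares, such as those on orientation, were not recomputed. The count of 308 sites was 308 with basic transcripts and 280 with protein-coding genes only. Of 64 alternatives for shares, 45 stayed within the main interval, and the 4 for counts stayed within 1.5 times the main count. Intronic sites rose to 98.4% with basic transcripts. Sites within 10 kb past a same-strand gene made up 4.29% with protein-coding genes only. Primer matches reached 100.0% with up to 6 mismatches. Shared contexts fell to a share of 46.8% with 31 nt, and unique windows, 64.3% in the main setting, were 35.4% with 50 nt and 87.0% with 100 nt on each side. With the first site of each cluster, the UMI stretch held 61.2% and the primer's C 15.9%. Without B2, 79 sites were left. Protein-coding hosts were then 75.9%, sites within 10 kb of a host start 15.2%, within 10 kb past a same-strand gene 7.59%, in a primer footprint 62.0% (main 41.9%), between primers 50.6% (main 24.0%), in a UMI stretch 7.59%, on the primer's C 45.6%, between primers in no footprint 29.1%, in shared contexts 48.1%, unique 40.5% and followed by NGGG 5.06%. The 3 results on the UMI stretch, the primer's C and the sites clear of both, with their alternatives, were chosen after seeing the data.

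No paired analysis was possible because positions were deposited without a value for any library. For the same reason leaving out a replicate and values per genotype were not run. The share with a protein-coding host was not recomputed with protein-coding genes only, where it is complete by construction. Depth limits cannot be stated, as the list gives no coverage, and uniqueness of a reference window does not say which copy gave the reads.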
